A study of Danio rerio with 16 samples.

Results

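The genes described here encode the NADPH oxidase of phagocytes and the proteins that neutrophils store in their granules. The list held 8 symbols, cyba, cybb, ncf1, ncf4, rac2, mpx, lyz and lect2l, and a gene counted as found when its Ensembl identifier carried that symbol in a table of zebrafish gene names, upper or lower case. Of the 8 symbols 6 were found among the 14500 genes of the expression table. These were the 5 oxidase and Rac genes and 1 of the 3 granule genes, lyz. No identifier carried the symbol mpx or lect2l, and no gene is analysed here under those names. A gene named EPX and 2 genes named LECT2 in the same table are described beside lyz as related granule genes. EPX and 1 of the LECT2 genes may be the genes meant by mpx and lect2l, which the names used here do not settle. They were chosen after their values were seen and are not counted among the 6.

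Hearts of adult zebrafish aged 6 to 9 months had been profiled by RNA sequencing in 4 groups of 4 libraries, each library from a pool of 3 hearts. The groups were KO cryoinjury, KO control, WT cryoinjury and WT control. KO denotes telomerase mutants, labelled AB/hu3430 in tert, which encodes the enzyme's reverse transcriptase, and WT denotes wild type. Cryoinjury kills part of the ventricle with a cold probe, and injured hearts were taken 3 days later.

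The phagocyte oxidase transfers electrons from NADPH across a membrane to oxygen and so makes superoxide, the starting point of the respiratory burst. Its flavocytochrome lies in the membrane and is silent until a complex of cytosolic subunits and the GTPase Rac2 moves to it. Neutrophils and macrophages both carry this enzyme, whereas lysozyme C and the myeloid peroxidase are used in zebrafish as markers of neutrophil granules or of early myeloid cells. Neutrophils reach a damaged fish heart early after injury, and macrophages accumulate there as well.

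Values are the deposited normalized signal, in units scaled by the authors for each library, and levels were not compared between genes because no gene lengths were used. The libraries held 5611576 to 14831664 reads over the 14500 genes. The targeted gene tert averaged 6.59 ± 0.281 units in KO cryoinjury hearts and 6.09 ± 0.484 in KO control hearts, against 3.21 ± 1.36 in WT cryoinjury and 1.45 ± 0.357 in WT control hearts (SD, n = 4 each). Each KO library exceeded each WT library, so the level of this transcript is no check that its product was lost. KO cryoinjury libraries 1 and 2 stood apart in the skin keratin gene krt5, with 337 and 887 units, against 12.0 and 75.4 units in libraries 3 and 4 of that group and 4.68 to 67.4 units in the other 12 libraries. The summed signal of 6 cardiomyocyte marker genes was 33000 to 46200 units in KO cryoinjury, 51400 to 65100 in KO control, 36300 to 39100 in WT cryoinjury and 60500 to 70000 in WT control hearts, so heart muscle transcripts were abundant in every library.

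All 5 oxidase genes rose after cryoinjury in both genotypes, about 4- to 9-fold in KO hearts and about 3- to 5-fold in WT hearts by group means. None of the 5 was called between KO and WT hearts, either injured or not. Few genes were: 0.441% of all genes were called after injury and 1.48% in control hearts, so this absence is not particular to the oxidase genes. The only listed granule gene found, lyz, was not called after injury in either genotype. The KO result for lyz depended on 1 library: without WT control library 4, lyz was called higher in KO hearts and still not called in WT hearts. Of EPX and the 2 LECT2 genes, 3 were called higher after injury in KO hearts and 2 in WT hearts. The share of all genes called higher after injury was 25.2% in KO and 24.2% in WT hearts. The tests below are limma on log2(signal + 1), with p-values adjusted over all 14500 genes. A gene was called at an adjusted p under 0.05. In bulk tissue fewer cells of a type and less RNA per cell cannot be told apart.

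The membrane part of the enzyme is made of the proteins of cybb, the catalytic chain that carries the flavin and the haems, and cyba, its partner chain, which stabilises it and offers the docking site for the cytosolic complex. The cyba gene (ENSDARG00000018283) read 62.5, 62.2, 51.2 and 45.9 units in KO cryoinjury libraries 1 to 4, against 11, 12.3, 14.2 and 11.4 units in KO control libraries 1 to 4. It read 65, 54.6, 42.9 and 51.7 units in WT cryoinjury libraries, against 10.8, 17.0, 12.2 and 14.7 units in WT control libraries. Every injured library lay above every control library, and the 2 genotypes overlapped in both conditions. The group means were 55.4 ± 8.25 units in KO cryoinjury, 12.2 ± 1.43 in KO control, 53.5 ± 9.09 in WT cryoinjury and 13.7 ± 2.75 in WT control hearts (SD, n = 4 each). The injury change was 2.09 in KO hearts (SE 0.15, limma adjusted p = 9.46e-09) and 1.90 in WT hearts (SE 0.15, limma adjusted p = 2.68e-08) on the log2(signal + 1) scale, on which all changes below are given.

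The cybb gene (ENSDARG00000056615) read 54.7, 71.4, 67.4 and 47.7 units in KO cryoinjury libraries 1 to 4, against 14.9, 16.6, 9.3 and 20.8 units in KO control libraries. In WT it read 74.1, 62.2, 50.9 and 56.5 units in cryoinjury libraries, against 13.6, 24.2, 15.8 and 22.8 units in control libraries. As for cyba, the injured and control libraries did not overlap, and the genotypes did. The injury change was 1.94 in KO hearts (SE 0.21, limma adjusted p = 1.32e-06), with group means of 60.3 ± 11 units after injury and 15.4 ± 4.75 units in control. It was 1.65 in WT hearts (SE 0.21, limma adjusted p = 6.74e-06), with 60.9 ± 9.93 units after injury and 19.1 ± 5.18 units in control (SD, n = 4 each). The 2 chains of the flavocytochrome thus both rose, with ratios of group means of 4.55 for cyba and 3.92 for cybb in KO hearts and of 3.91 and 3.19 in WT hearts.

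**Figure D1:**
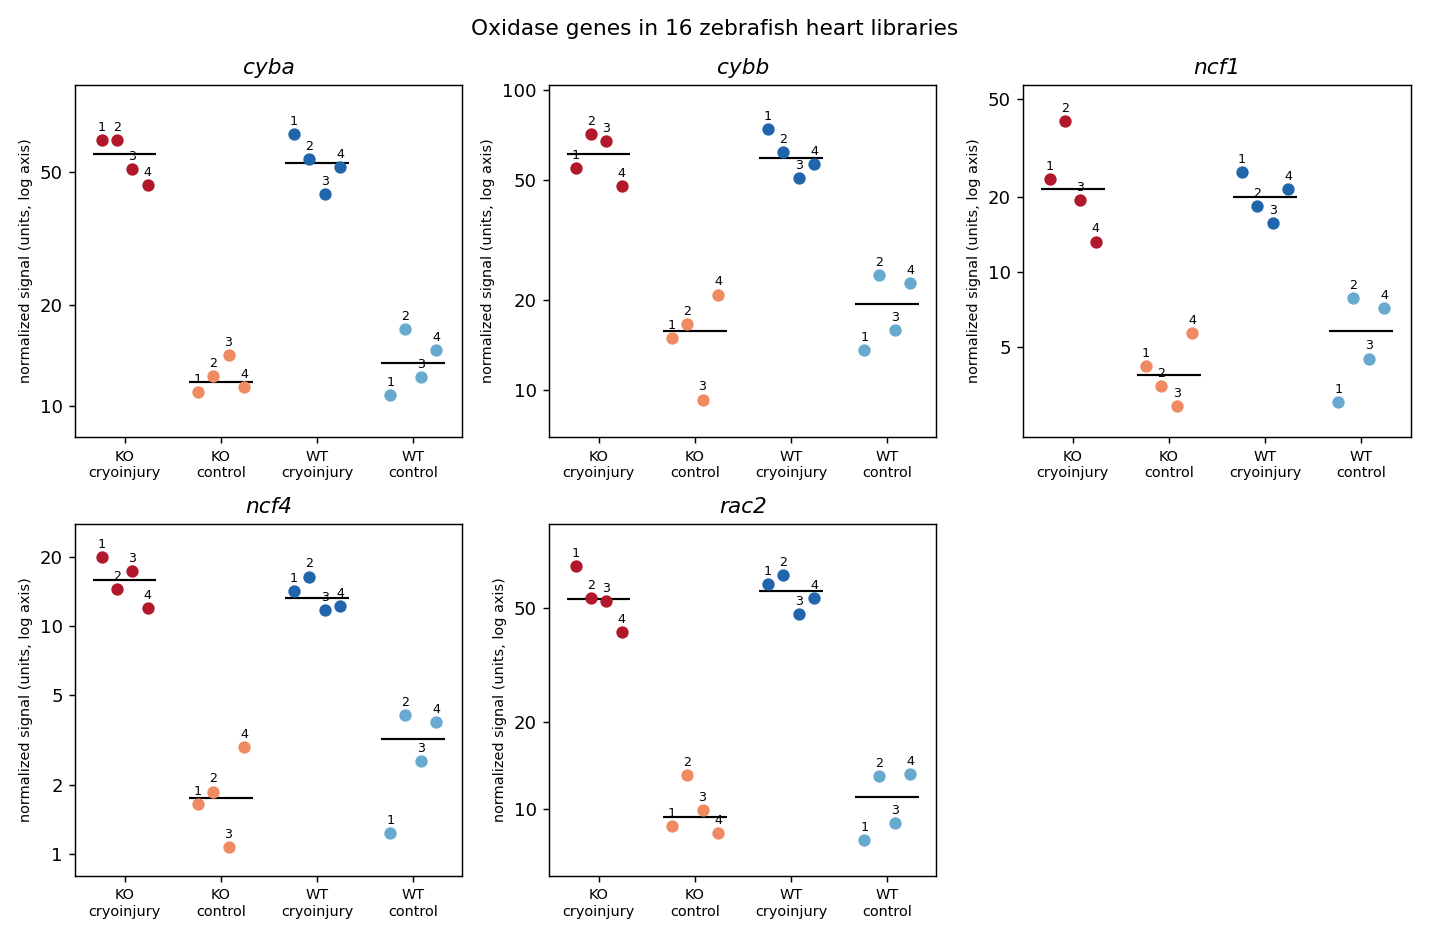
Normalized signal, on a log axis in deposited units, of cyba, cybb, ncf1, ncf4 and rac2 in each of the 16 libraries. Points are libraries, numbered within their group, and black lines are group medians. In each panel the cryoinjury libraries lie above all control libraries of the same genotype, while KO and WT libraries overlap.

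Among the cytosolic subunits, ncf1 encodes the organiser protein p47phox, whose phosphorylation starts assembly, and ncf4 encodes p40phox, which binds phosphoinositides and acts in oxidase activity on phagosomes. The ncf1 gene (ENSDARG00000033735, named NCF1 in the table) read 23.8, 40.5, 19.5 and 13.3 units in KO cryoinjury libraries 1 to 4, against 4.20, 3.50, 2.90 and 5.69 units in KO control libraries. It read 25.4, 18.5, 15.8 and 21.7 units in WT cryoinjury libraries, against 3.01, 7.91, 4.50 and 7.16 units in WT control libraries. KO cryoinjury library 2 was the highest of all, the library that also had the most krt5, and the injured and control libraries did not overlap in either genotype. The mean was 24.3 ± 11.6 units in KO cryoinjury, 4.07 ± 1.2 in KO control, 20.4 ± 4.16 in WT cryoinjury and 5.65 ± 2.29 in WT control hearts (SD, n = 4 each). The change was 2.24 in KO hearts (SE 0.29, limma adjusted p = 7.82e-06) and 1.73 in WT hearts (SE 0.29, limma adjusted p = 9.71e-05). The change of ncf1 in KO hearts was 1.78 with libraries 1 and 2 of KO cryoinjury left out (SE 0.30, limma adjusted p = 0.000287).

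The ncf4 gene (ENSDARG00000040812, named NCF4) had the largest injury change of the 5 in KO hearts. It read 20.1, 14.5, 17.5 and 12.0 units in KO cryoinjury libraries 1 to 4, against 1.65, 1.88, 1.07 and 2.94 units in KO control libraries. It read 14.2, 16.5, 11.8 and 12.3 units in WT cryoinjury libraries, against 1.24, 4.09, 2.57 and 3.79 units in WT control libraries. The injured libraries again lay clear of the controls, although the control values rest on only 7 to 31 reads per library. The mean was 16 ± 3.54 units in KO cryoinjury, 1.89 ± 0.783 in KO control, 13.7 ± 2.15 in WT cryoinjury and 2.92 ± 1.30 in WT control hearts (SD, n = 4 each). The change was 2.58 in KO hearts (SE 0.24, limma adjusted p = 2.39e-07) and 1.96 in WT hearts (SE 0.24, limma adjusted p = 4.11e-06).

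Rac2 is the blood-cell Rac GTPase that joins the cytosolic subunits at the membrane, and in zebrafish it is needed for neutrophil migration. The rac2 gene (ENSDARG00000038010) read 70.0, 54.1, 52.9 and 41.2 units in KO cryoinjury libraries 1 to 4, against 8.71, 13.1, 9.91 and 8.23 units in KO control libraries. It read 60.6, 65.2, 47.5 and 54.0 units in WT cryoinjury libraries, against 7.78, 13, 8.88 and 13.2 units in WT control libraries. The lowest injured library had 41.2 units, above the highest control library. The mean was 54.5 ± 11.8 units in KO cryoinjury, 9.98 ± 2.17 in KO control, 56.9 ± 7.73 in WT cryoinjury and 10.7 ± 2.81 in WT control hearts (SD, n = 4 each). The change was 2.33 in KO hearts (SE 0.18, limma adjusted p = 2.88e-08) and 2.32 in WT hearts (SE 0.18, limma adjusted p = 2.95e-08).

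In KO hearts 5 of the 6 found genes were called higher after injury and 0 were called lower, where 25.2% of all genes tested were called higher and 22.4% lower. In WT hearts 5 of 6 were likewise higher and 0 lower, where 24.2% of all genes were called higher and 21.7% lower. The median change of the 5 oxidase genes was 2.24 in KO and 1.90 in WT hearts, against -0.02 and -0.01 over all genes tested. The members were chosen with earlier results of these data known, so their excess over all genes is a description and no test. The cryoinjury and control libraries of KO fish did not overlap, with injury higher, for all 6 genes, where 22.1% of all genes showed this. For lyz the gap was narrow, 2.13 units in KO cryoinjury library 1 against 1.88 in KO control library 2, from 14 reads each. In WT fish they did not overlap for the 5 oxidase genes, where 22.9% of all genes showed this. Scaling by library totals alone, with no correction for composition, raised the median injury change over the whole table by 0.22 in KO and 0.33 in WT hearts. It lowered the share of calls that were lower after injury to 22.4% in KO and 15.8% in WT, against 47.1% and 47.3% with the deposited scaling, and the oxidase genes remained called and higher under it.

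**Figure D2:**
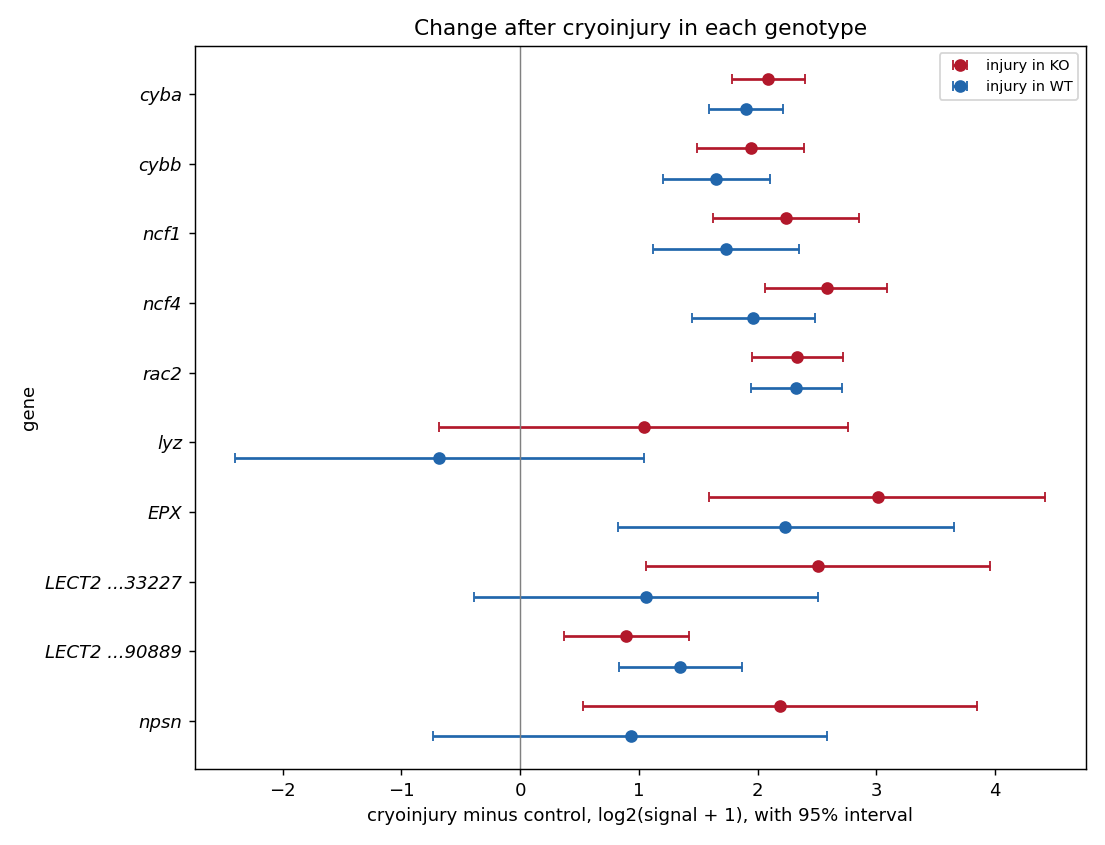
Injury change on the log2(signal + 1) scale, cryoinjury minus control, with its 95% confidence interval from limma, for the 6 listed genes found and 4 related genes, in KO and WT hearts. The 5 oxidase genes lie between 1.65 and 2.58 with intervals above 0, whereas the lyz intervals span 0 in both genotypes.

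In 3 of the 4 groups all 5 oxidase genes were lowest in the same library, namely in library 4 of KO cryoinjury, in library 3 of WT cryoinjury and in library 1 of WT control. In WT control, 4 of the 5 were highest in library 2, and rac2 was highest in library 4. KO control libraries were ordered less alike: library 3 was lowest for 3 genes and highest for cyba, and library 4 was highest for 3 genes and lowest for rac2. Their summed signal was 231, 243, 209 and 160 units in KO cryoinjury libraries 1 to 4, against 40.4, 47.3, 37.4 and 49.0 units in KO control libraries. It was 239, 217, 169 and 196 units in WT cryoinjury libraries, against 36.4, 66.3, 44.0 and 61.7 units in WT control libraries. The ratio of the group medians was 5.02 in KO and 3.91 in WT hearts. After subtracting the 4 group means, the 10 pairs of oxidase genes correlated with Pearson's r of 0.41 to 0.80 across the 16 libraries, with a median of 0.64. These are descriptions, since the genes of a library share its hearts and its depth.

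By the same measure over 16 libraries, the genes of the whole table most like cyba were gmip (r = 0.94), DOCK11 (r = 0.88) and FERMT3 (r = 0.87). Those most like cybb were lygl1 (r = 0.96), ENSDARG00000077486 (r = 0.86) and SLC2A6 (r = 0.84). Those most like ncf1 were RHOF (r = 0.89), limd2 (r = 0.89) and ENSDARG00000088812 (r = 0.87). For ncf4 they were ENSDARG00000039932 (r = 0.88), APBB1IP (r = 0.88) and RAB4B (r = 0.87). For rac2 they were si:cabz01015815.2 (r = 0.93), si:rp71-68n21.9 (r = 0.92) and FMNL1 (r = 0.90). Without subtracting group means, r was -0.35 for rac2 with si:cabz01015815.2, which thus did not follow the injury rise. It was 0.71 for ncf4 with RAB4B, 0.77 for cybb with ENSDARG00000077486 and 0.93 to 0.99 for the other pairs named here. The highest correlations of a whole table are high by selection, so these r values rank genes and do not measure a shared control.

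Of 23 further names of oxidase partners and homologs, 10 were found. After injury 7 of these were called higher and 0 lower in KO hearts, and 7 higher and 1 lower in WT hearts. Over all genes 25.2% were called higher and 22.4% lower in KO hearts, and 24.2% higher and 21.7% lower in WT hearts. The median change of the 10 partner genes, 0.51 in KO and 0.43 in WT, was below that of the 5 subunit and Rac genes. Among them was arhgdig, a GDP-dissociation inhibitor of the family that holds Rac in the cytosol. It averaged 111 ± 16.9 units in KO cryoinjury, 31.4 ± 4.73 in KO control, 119 ± 16.9 in WT cryoinjury and 37.0 ± 6.01 in WT control hearts (SD, n = 4 each), a change of 1.79 in KO (limma adjusted p = 3.25e-08) and 1.66 in WT (limma adjusted p = 7.06e-08). The scaffold gene sh3pxd2ab, a homolog of the organiser subunit, rose by 1.2 in KO and 1.29 in WT hearts (limma adjusted p = 0.000105 and 4.69e-05).

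The partner genes below had smaller changes than arhgdig and sh3pxd2ab. The Rac gene rac1a rose by 0.62 in KO and 0.49 in WT hearts (limma adjusted p = 4.84e-05 and 0.000473). The small GTPase gene rap1b rose by 0.46 and 0.38 (limma adjusted p = 9.44e-05 and 0.000553). CYBC1, a chaperone that the catalytic chain needs in mouse and human, rose by 0.56 and 0.49 (limma adjusted p = 0.000521 and 0.0016), and ARHGDIA, another inhibitor that holds Rac in the cytosol, rose by 0.44 and 0.30 (limma adjusted p = 0.0003 and 0.006). The related GTPase gene rap1ab was called lower in WT hearts, by a change of -0.24 (limma adjusted p = 0.0432), and its change in KO hearts was -0.09 (limma adjusted p = 0.446). HVCN1, the proton channel that balances the charge the oxidase moves, was not called, with changes of 0.21 in KO (limma adjusted p = 0.251) and -0.08 in WT (limma adjusted p = 0.698). Nor was rap1aa, with changes of -0.10 and -0.02 (limma adjusted p = 0.366 and 0.887).

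Of 31 names of genes that signal to the oxidase, 14 were found, with 6 higher and 1 lower after injury in KO hearts and 6 higher and 1 lower in WT hearts. Beside these, 25.2% of all genes were higher and 22.4% lower in KO hearts, and 24.2% higher and 21.7% lower in WT hearts. The integrin chain gene itgb2, needed for leukocyte adhesion, changed by 1.17 in KO and 1.43 in WT hearts (limma adjusted p = 2.41e-07 and 2.63e-08). The adaptor gene lcp2a, which links receptors to phospholipase C, changed by 1.56 and 1.52 (limma adjusted p = 2.91e-06 and 3.42e-06). The phospholipase gene PLCG2 changed by 0.62 and 1.08 (limma adjusted p = 0.000184 and 5.02e-07).

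Of 9 genes found that remove superoxide and peroxide, 4 were higher and 3 lower after injury in KO hearts. In WT hearts 4 were higher and 4 lower, so calls went in both directions. Of all genes tested, 25.2% were called higher and 22.4% lower in KO hearts, and 24.2% higher and 21.7% lower in WT hearts. SOD2, the mitochondrial superoxide dismutase, averaged 172 ± 18.6 units in KO cryoinjury, 320 ± 26.3 in KO control, 143 ± 6.47 in WT cryoinjury and 289 ± 6.28 in WT control hearts (SD, n = 4 each). It fell by 0.90 in KO and by 1.01 in WT hearts on the log2 scale (limma adjusted p = 1.22e-07 and 3.26e-08), and PRDX3, a mitochondrial peroxidase, fell by 0.56 and by 0.79 (limma adjusted p = 4.91e-05 and 1.12e-06). The cytosolic peroxidase gene prdx1 rose by 2.30 in KO and 2.56 in WT hearts (limma adjusted p = 3.5e-07 and 9.66e-08), and prdx6 rose by 0.90 and 0.74 (limma adjusted p = 1.99e-06 and 1.37e-05).

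Most of the shared leukocyte, macrophage and neutrophil genes found were also called higher after injury, though not all. The counts below stand beside 25.2% of all genes called higher and 22.4% lower in KO hearts. In WT hearts 24.2% of all genes were called higher and 21.7% lower. Of 12 shared leukocyte genes found of 20 names, 10 rose in KO and 10 in WT hearts, among them the actin-bundling gene LCP1, with changes of 2.06 and 2.14 (limma adjusted p = 5.4e-07 and 3.09e-07), and the myeloid transcription factor gene spi1a, with changes of 1.86 and 1.82 (limma adjusted p = 2.59e-07 and 3.03e-07). Their summed signal was 578 to 774 units in KO cryoinjury, 168 to 228 in KO control, 637 to 820 in WT cryoinjury and 163 to 249 in WT control hearts. Of 22 macrophage genes found under 19 of 26 names, 20 rose in each genotype, with a median change of 2.19 in both, and their summed signal was 2770 to 3060 units in KO cryoinjury, 749 to 916 in KO control, 2690 to 3280 in WT cryoinjury and 732 to 1010 in WT control hearts. Of 23 neutrophil genes found under 22 of 40 names, 20 were higher and 1 lower in KO hearts and 15 higher and 1 lower in WT hearts, and their summed signal was 1130 to 2170 units in KO cryoinjury, 692 to 794 in KO control, 1020 to 1160 in WT cryoinjury and 695 to 947 in WT control hearts. These 23 neutrophil genes include npsn and both LECT2 genes, which are also described on their own below. The 2170 units were KO cryoinjury library 2 alone, the library with the most krt5, and the other 3 of its group had 1130 to 1300 units. Without that library 19 neutrophil genes were higher in KO hearts, without libraries 1 and 2 of KO cryoinjury 18 were, and 17 were higher in WT hearts when WT control library 4 was left out. The counts of shared leukocyte and macrophage genes that rose were 10 and 20 in each genotype under each of these exclusions, which were chosen after the data were seen. The median change was 1.54 in KO and 1.57 in WT hearts for the shared leukocyte genes, and 1.53 and 1.1 for the neutrophil genes. The part of these cells' numbers in the oxidase result was not tested. A summed signal weighs most the genes of its list with the highest signal, so the sums do not compare the rise of one cell type with another.

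The change of the macrophage protease gene ctss2.1 was 3.40 in KO and 3.10 in WT hearts (limma adjusted p = 9.02e-11 and 2.91e-10), and that of the lysosomal protease gene CTSZ was 2.17 and 2.37 (limma adjusted p = 1.02e-10 and 6.1e-11). Of the neutrophil list, the metalloprotease gene adam8a changed by 4.44 in KO and 3.77 in WT hearts (limma adjusted p = 4.63e-09 and 2.81e-08). KO cryoinjury library 2, the library with the most krt5, read 188 units of adam8a, and the others of that group read 53.2 to 82.2 units. PGD, an enzyme of the pentose phosphate pathway that regenerates NADPH, changed by 0.92 and 0.71 (limma adjusted p = 1.33e-06 and 1.87e-05), and LTA4H, which makes the attractant leukotriene B4, changed by 1.56 and 1.53 (limma adjusted p = 1.1e-06 and 1.17e-06). The summed signal of 2 lymphocyte genes found was 7.24 to 8.08 units in KO cryoinjury, 1.5 to 3.37 in KO control, 5.57 to 12.3 in WT cryoinjury and 2.48 to 3.93 in WT control hearts, and both genes rose in both genotypes. Of 5 red blood cell genes, 0 were called in either genotype. Of 6 thrombocyte genes, 1 was higher and 4 lower in KO hearts and 1 was higher and 2 lower in WT hearts. Of 6 skin and epithelial genes, 2 were higher and 0 lower in KO hearts and 1 was higher and 1 lower in WT hearts. These lists are short, and of all genes 25.2% were higher and 22.4% lower in KO hearts, and 24.2% and 21.7% in WT hearts.

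The granule gene lyz (ENSDARG00000057789), for the lysozyme that cuts bacterial cell walls, behaved differently from the oxidase genes in WT control library 4. It read 2.13, 4.19, 4.17 and 3.56 units in KO cryoinjury libraries 1 to 4, against 1.35, 1.88, 0.61 and 0.98 units in KO control libraries. It read 3.75, 1.79, 2.06 and 0.659 units in WT cryoinjury libraries, against 1.59, 0.264, 1.03 and 65.6 units in WT control libraries. KO cryoinjury libraries all lay above KO controls, but in WT 1 uninjured library, number 4, held 467 lyz reads where the other 15 libraries held 2 to 32. The mean was 3.52 ± 0.966 units in KO cryoinjury, 1.21 ± 0.544 in KO control, 2.07 ± 1.28 in WT cryoinjury and 17.1 ± 32.3 in WT control hearts (SD, n = 4 each). The injury change was 1.04 in KO hearts (SE 0.82, limma adjusted p = 0.314) and -0.68 in WT hearts (SE 0.82, limma adjusted p = 0.525). EdgeR on the recovered reads called lyz lower in WT (-3.14, adjusted p = 0.0222). Without WT control library 4 the limma change in WT turned to 0.61 (SE 0.33, limma adjusted p = 0.153). The KO change, 1.04, was then called with an SE of 0.31 in place of 0.82 (limma adjusted p = 0.0108), since all 4 groups share the estimate of spread.

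EPX (ENSDARG00000019521), the table's name for a peroxidase gene of the family that includes the granule peroxidases of myeloid cells, read 7.32, 17.6, 27.0 and 4.79 units in KO cryoinjury libraries 1 to 4, against 0.300, 0.808, 0.610 and 0.588 units in KO control libraries. It read 49.0, 9.35, 5.20 and 5.58 units in WT cryoinjury libraries, against 0.177, 0.527, 1.42 and 8.99 units in WT control libraries. The KO groups did not overlap, and in WT control library 4 lay within the range of the injured libraries. The change was 3.01 in KO hearts (SE 0.67, limma adjusted p = 0.00138) and 2.23 in WT hearts (SE 0.67, limma adjusted p = 0.0113). The WT change was 2.89 without WT control library 4 (limma adjusted p = 0.00111) and 1.55 without WT cryoinjury library 1 (limma adjusted p = 0.0466). With a pseudocount of 10 it was 0.89 and missed the threshold (limma adjusted p = 0.051).

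The name LECT2, a chemotactic factor made mainly by the liver in mammals, was carried by 2 identifiers, and reads of close copies may have been split between them. The gene ENSDARG00000033227 read 5.64, 19.7, 6.34 and 2.00 units in KO cryoinjury libraries 1 to 4, against 0.300, 0.404, 0 and 0.588 units in KO control libraries. It read 14.1, 6.61, 3.63 and 2.46 units in WT cryoinjury libraries, against 1.06, 0.527, 0.644 and 17.8 units in WT control libraries. Again WT control library 4 stood above the other control libraries. Its change was 2.51 in KO hearts (SE 0.69, limma adjusted p = 0.00636), or 1.85 with libraries 1 and 2 of KO cryoinjury left out (limma adjusted p = 0.084). It was 1.06 in WT hearts (SE 0.69, limma adjusted p = 0.223), or 1.92 without WT control library 4 (SE 0.52, limma adjusted p = 0.00636).

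For the other LECT2 gene, ENSDARG00000090889, WT control library 4 did not stand apart. It read 13.4, 30.5, 14.7 and 15.7 units in KO cryoinjury libraries 1 to 4, against 8.11, 11, 10.4 and 7.06 units in KO control libraries. It read 16.3, 13.1, 15.6 and 16.2 units in WT cryoinjury libraries, against 3.36, 8.57, 4.12 and 6.74 units in WT control libraries. The injured and control libraries did not overlap in either genotype, and KO cryoinjury library 2, with 30.5 units, stood above the rest of its group. The gene rose by 0.89 in KO (SE 0.25, limma adjusted p = 0.00698) and 1.35 in WT hearts (SE 0.25, limma adjusted p = 0.000245).

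**Figure D3:**
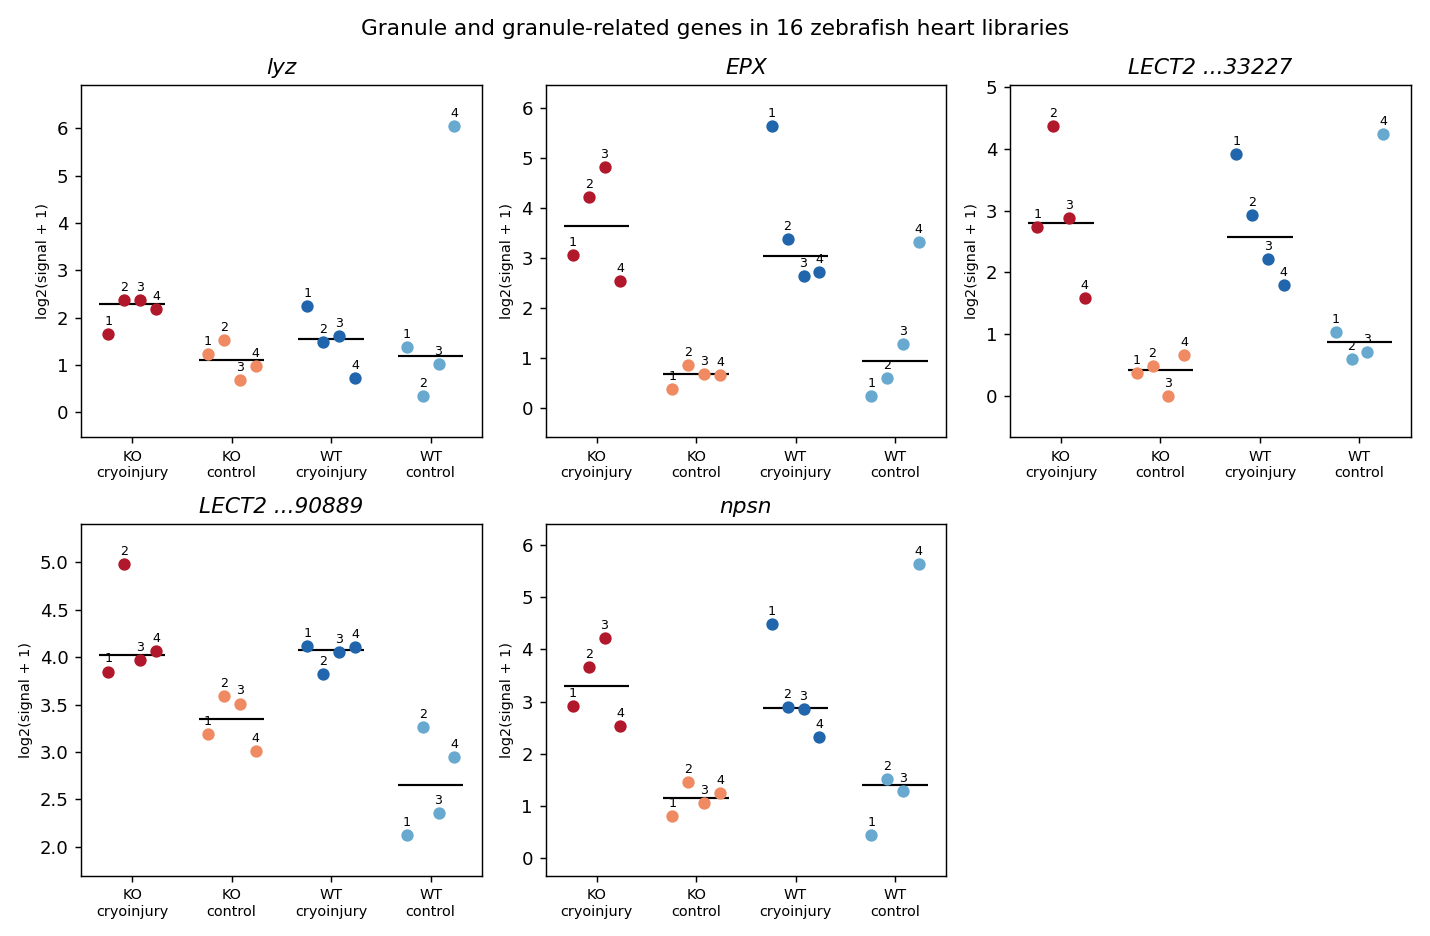
Values of lyz, EPX, the 2 LECT2 genes and npsn as log2(signal + 1) in each of the 16 libraries, with points numbered by library within a group and lines at group medians. WT control library 4 stands far above the other WT control libraries for lyz, npsn and LECT2 ENSDARG00000033227, and above them for EPX.

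WT control library 4 was compared with the other 3 libraries of its group over the whole table. Only 7 of 14500 genes, or 0.0483%, had at least 5 units there and at least 5 times the highest of the other 3. They included lyz at 65.6 units, the neutrophil protease gene npsn at 48.6 units, LECT2 ENSDARG00000033227 at 17.8 units and EPX at 8.99 units. The rest were PARVA, ENSDARG00000020671 and adgrg4b, and PARVA was higher there than EPX. The genes that stood out in this library were thus not all granule genes. None of the 5 oxidase genes, the 22 macrophage genes or the 12 shared leukocyte genes met the same measure, and 2 of the 23 neutrophil genes did, npsn and this LECT2. The same count in the other WT control libraries was 6, 5 and 2 genes, none of them from these lists. The npsn gene (ENSDARG00000010423) read 6.56, 11.7, 17.5 and 4.79 units in KO cryoinjury, against 0.751, 1.75, 1.07 and 1.37 units in KO control libraries. It read 21.5, 6.42, 6.28 and 3.96 units in WT cryoinjury, against 0.354, 1.84, 1.42 and 48.6 units in WT control libraries. Its change was 2.19 in KO (SE 0.79, limma adjusted p = 0.0292) and 0.93 in WT hearts (SE 0.79, limma adjusted p = 0.358).

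Within groups the r of lyz over 16 libraries was 0.89 with npsn, 0.83 with LECT2 ENSDARG00000033227, 0.70 with EPX and 0.18 with LECT2 ENSDARG00000090889, and 0.09 to 0.30 with the 5 oxidase genes. Genes most like lyz in the whole table were npsn (r = 0.89) and ENSDARG00000096202 (r = 0.88). These values rest on few libraries. With WT control library 4 and WT cryoinjury library 1 left out, r over 14 libraries was 0.16 for lyz with npsn, 0.38 with LECT2 ENSDARG00000033227, -0.20 with LECT2 ENSDARG00000090889 and 0.25 with EPX. With the 5 oxidase genes the r of lyz was then between -0.64, for cyba, and -0.03, for cybb. EPX with npsn stayed at 0.87, and the 10 oxidase pairs lay at 0.30 to 0.81.

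The study title and design text ask how the heart responds to injury with and without telomerase. After injury 0 of the 6 genes were called between KO and WT hearts, where 0.441% of all genes were called, and in control hearts 0 of 6, where 1.48% were called. By limma none of the 6 had an unadjusted p under 0.05, where 12.2% of all genes did after injury and 15.9% in control hearts. EdgeR and DESeq2 on the recovered reads called 0 as well, although DESeq2 gave no adjusted p for lyz. In control hearts the unadjusted p was under 0.05 for lyz in edgeR (-3.78, adjusted p = 0.133) and for ncf4 in DESeq2 (-0.69, adjusted p = 0.312). The KO and WT libraries overlapped for all 6 genes in both conditions. Of all genes, 3.84% lay higher and 4.01% lower in KO with no overlap after injury, and 3.74% higher and 3.99% lower in control hearts. In injured hearts the KO minus WT difference was 0.05 for cyba (95% confidence interval -0.26 to 0.36), -0.02 for cybb (-0.47 to 0.43), 0.15 for ncf1 (-0.46 to 0.76), 0.20 for ncf4 (-0.31 to 0.71) and -0.07 for rac2 (-0.46 to 0.31). Limma adjusted p-values of these 5 were 0.8 to 0.986. The signs for cyba, cybb, ncf1 and rac2 changed with the setting, as the values in the closing part show. The intervals still allow a KO excess of up to 0.76 for ncf1 and 0.71 for ncf4 on the log2 scale.

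In control hearts the KO minus WT difference was -0.14 for cyba (-0.45 to 0.17), -0.31 for cybb (-0.76 to 0.14), -0.35 for ncf1 (-0.96 to 0.26), -0.41 for ncf4 (-0.92 to 0.10) and -0.08 for rac2 (-0.47 to 0.30). Limma adjusted p-values were 0.443 to 0.879. For lyz the difference was 0.63 in injured hearts (-1.09 to 2.35, limma adjusted p = 0.818) and -1.09 in control hearts (-2.81 to 0.63, limma adjusted p = 0.563). Without WT control library 4 the lyz difference in control hearts was 0.20 (limma adjusted p = 0.85). Of the related genes, EPX, both LECT2 genes and npsn were not called between genotypes in either condition by limma. The one with the smallest p was LECT2 ENSDARG00000090889 in control hearts, higher in KO by 0.65 (0.13 to 1.17, unadjusted p = 0.0178, limma adjusted p = 0.202).

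The injury response was set against itself between genotypes by the interaction, KO change minus WT change, for which 0 of the 6 genes and 0.0% of all genes were called by limma. None of the 6 had an unadjusted p under 0.05, where 8.21% of all genes did, and edgeR and DESeq2 called 0 of the 6. The limma interaction was 0.20 for cyba (-0.24 to 0.63), 0.29 for cybb (-0.34 to 0.93), 0.50 for ncf1 (-0.36 to 1.37), 0.61 for ncf4 (-0.11 to 1.34) and 0.01 for rac2 (-0.53 to 0.55). The estimate for ncf4 had the smallest p of the 5 (unadjusted p = 0.0927, limma adjusted p = 0.67). For lyz it was 1.72 (-0.72 to 4.15, limma adjusted p = 0.723), and without WT control library 4 it was 0.43 (limma adjusted p = 0.866). The larger injury changes of ncf4 and ncf1 in KO hearts were therefore not shown to differ from those in WT hearts. No gene of the partner, activation, neutrophil, shared leukocyte or macrophage lists was called between genotypes in either condition. Only 0.441% of all genes were called after injury and 1.48% in control hearts, so an absence of calls is not particular to these lists.

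**Figure D4:**
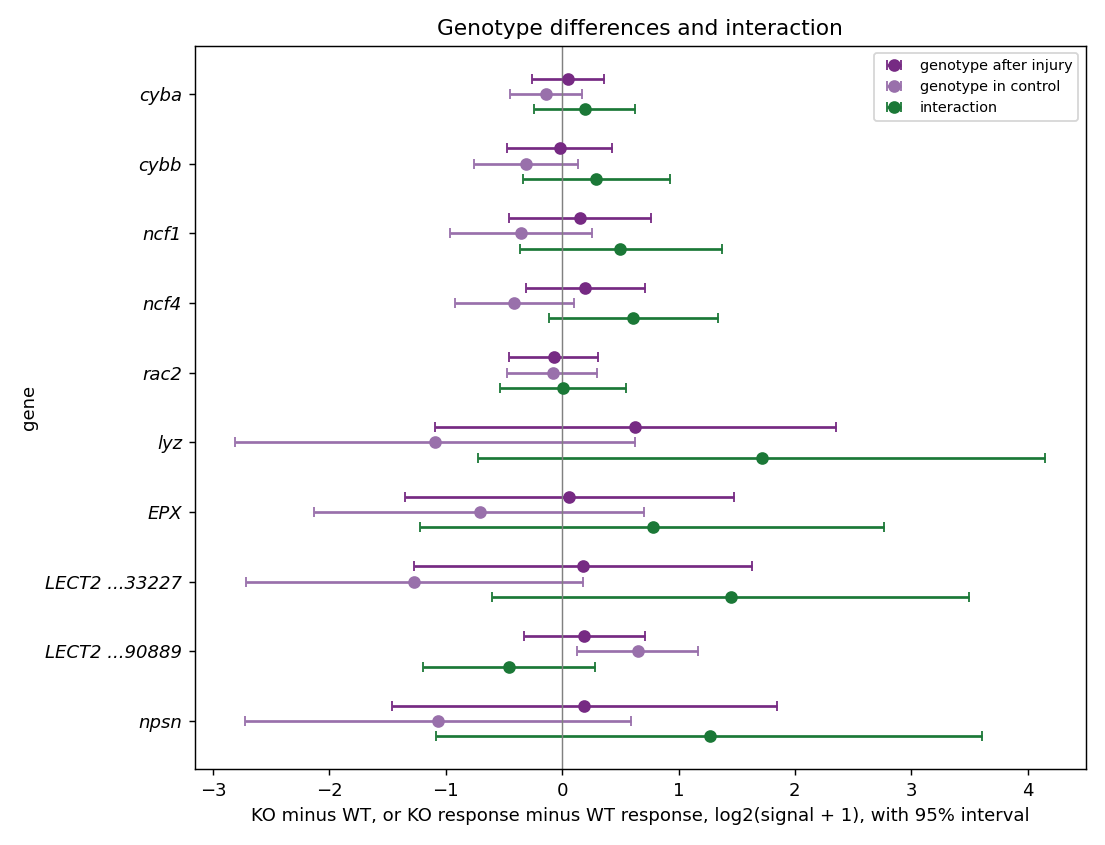
Difference between KO and WT hearts on the log2(signal + 1) scale, KO minus WT, with 95% confidence intervals from limma, after cryoinjury and in control hearts, and the interaction, KO response minus WT response, for 10 genes. The intervals of the 5 oxidase genes include 0 in both conditions and in the interaction, and those of lyz are the widest of the 6 listed genes found.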

How the data were processed

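RNA sequencing of polyadenylated RNA had been made with the TruSeq RNA v2 kit, per the labels' protocols. The table the authors deposited holds a normalized signal for 14500 genes in 16 libraries, scaled by a method not given in the sources used here. Tools listed in the submitters' processing notes are RSEM 1.2.3, CASAVA 1.8.2 and cutadapt, and the build listed is Zv9. In every library 100% of values were whole multiples of 1 step, within 0.01 read, so reads could be recovered. The name table matched 11702 identifiers. Reads of overlapping genes on opposite strands cannot be told apart.

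Groups came from the sample titles. Limma 3.58.1, run in R 4.3.3 with its intensity trend, was the main test, fitted to log2(signal + 1) with 4 group means over 16 libraries, 12 residual and 5.12 prior degrees of freedom, and Benjamini-Hochberg adjustment over 14500 genes. Changes on this scale understate those of low genes. The script was tested on simulated data. Alternatives were edgeR 4.0.16 and DESeq2 1.42.0 on recovered reads, other scalings, pseudocounts, filters and thresholds, fewer libraries and a replicate block. Libraries of a group differed by more than sampling noise, the chi-square divided by its degrees of freedom being 6.85 to 19.2.

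The members and gene lists were chosen with earlier results of these data known. The rule named all members found, all partner genes, up to 4 genes of each other list with the smallest p for injury in WT, and the 3 genes most like each member. EPX, LECT2, npsn and the genes that stood out in WT control library 4 were named after their values were seen. A few genes under this rule are not reported here.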

Additional observations from a re-analysis of the deposited data

Results flagged for a closer look

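In 7 of 44 combinations of a gene and a group, 1 library lay far from the other 3 of its group, by a gap to its nearest neighbour, as a share of the group's range, above Dixon's critical value for 4 samples. Chance flags about 1 in 20 such groups when values are normally distributed, a rate that is no yardstick here, since the signal is skewed and 6 of the 7 lie in genes named after their values were seen. On the log2(signal + 1) scale, tried after seeing the data, only 1 combination passed, LECT2 ENSDARG00000033227 in WT control, with a gap of 0.881 of the range, and lyz in WT control had 0.819. For WT control library 4, the gap was 0.98 of the range for lyz, 0.969 for LECT2 ENSDARG00000033227, 0.969 for npsn and 0.859 for EPX, each time as the highest library. For WT cryoinjury library 1 it was 0.905 for EPX and 0.859 for npsn, again as the highest. For KO cryoinjury library 2 it was 0.866 for LECT2 ENSDARG00000090889, at 30.5 units against 13.4 to 15.7 units in the other 3. No oxidase gene was among these 7.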

How the results depend on the processing

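The 5 oxidase genes stayed higher after injury and called in both genotypes under all 27 alternatives. No member was called between genotypes, or in the interaction, under any alternative run. EdgeR also called lyz lower in WT (-3.14, adjusted p = 0.0222), DESeq2 gave no adjusted p for it, and fitting only the 8 KO libraries called lyz higher (limma adjusted p = 0.00513). DESeq2 called LECT2 ENSDARG00000033227 between genotypes in control hearts (-3.98, adjusted p = 0.0354). For this gene WT control library 4 read 17.8 units and the other WT control libraries 0.527 to 1.06 units. Its limma difference in control hearts, -1.27, ranged over -1.61 to -0.41 with 1 library left out. The cause was not tested for any of these changes.

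The count of all genes called between genotypes after injury, 64, was 100 with library totals, 215 with DESeq2, 25 with only the 8 libraries compared, 5 without KO cryoinjury libraries 1 and 2 and 13 at a threshold of 0.01. That in control hearts, 215, was 406 with DESeq2, 73 with only the 8 libraries and 46 at 0.01. The interaction count, 0, was 20 with DESeq2. Leaving out 1 library at a time gave 19 to 84 genes after injury, 76 to 361 in control and 0 to 3 in the interaction. With library totals the share of genotype calls that were lower was 62.0% after injury and 61.3% in control, against 34.4% and 72.6% with the deposited scaling.

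By the criterion that every same-numbered pair correlate above 0.1, replicate numbers were not taken to pair the libraries: deviations of same-numbered libraries correlated at -0.07 to 0.22 over 24 pairs, and those of other pairs at -0.21 to 0.19. Between KO cryoinjury and KO control they were 0.07 to 0.22, with 3 of 4 above 0.1 and 7 of 8 libraries correlating best with their own number, a hint from the data and not from the design. With the number as a replicate block, 97 genes were called between genotypes after injury, 289 in control and 1 in the interaction, and the members called were 5 for injury in KO, 5 in WT and 0 between genotypes.

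Some signs changed, among them that of the lyz change in WT. Between genotypes after injury, cyba was -0.01 with library totals and -0.12 without KO cryoinjury libraries 1 and 2, where ncf1 was -0.30, LECT2 ENSDARG00000033227 -0.48 and LECT2 ENSDARG00000090889 -0.01. EPX was -0.01 with a pseudocount of 10, -0.27 in edgeR and -0.29 in DESeq2. The rac2 interaction was -0.10 with library totals, -0.01 with a pseudocount of 10 and -0.19 without those 2 libraries. With 1 library left out, the difference after injury ranged over -0.05 to 0.15 for cyba, -0.11 to 0.09 for cybb, -0.12 to 0.39 for ncf1, -0.20 to 0.05 for rac2, -0.32 to 0.75 for EPX, -0.31 to 0.61 for LECT2 ENSDARG00000033227 and -0.06 to 0.31 for LECT2 ENSDARG00000090889. The rac2 difference in control ranged over -0.21 to 0.02 and its interaction over -0.12 to 0.14. For lyz the WT injury change ranged over -1.30 to 0.61 and the control difference over -1.71 to 0.20. Low reads limit lyz, at 2 to 32 in 15 libraries, and ncf4 in control hearts.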
